A study of Homo sapiens with 14 samples.

Results

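MAGE, GAGE, SSX, PAGE, XAGE and CTAG genes, the large cancer-testis antigen families, were followed through 14 RNA-seq libraries of K562 cells. Members were all gene symbols of the count table that begin with MAGEA, MAGEB, MAGEC, GAGE, SSX, PAGE, XAGE or CTAG and go on with a number. A pair of hyphenated names (MAGEA10-MAGEA5 and MAGEA8-AS1) was left out. This gave 73 of 24729 genes. SSX2IP fits the pattern of names but encodes a partner protein of SSX2 and lies on chromosome 1, so it is described apart, and 72 genes remained. Of these, 25 had a mean of at least 1 CPM (read counts scaled to library size, with TMM factors) in at least 1 group and are named here.

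Cancer-testis genes are transcribed in male germ cells and are silent in most other adult tissues, where DNA methylation of their promoters holds them off. They come back on in many tumours, and peptides from their proteins are presented to T cells, which is how MAGEA1 and later members were found. Most of the families sit on the X chromosome in clusters of duplicated genes. MAGE proteins of the A, B and C families share a domain that binds RING ubiquitin ligases and alters which proteins these ligases mark. SSX proteins are repressors of transcription that work with Polycomb complexes. The GAGE, PAGE and XAGE proteins are small, disordered and related to each other, and their functions are less well known. K562 cells grew out of a patient's chronic myeloid leukemia, keep erythroid traits and are long known to transcribe several of these genes.

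All 5 groups were K562 cells in the same serum-supplemented medium. WT cells (2 libraries) carried neither dCas9 nor an sgRNA. The other 4 groups (3 libraries each) stably expressed the tagged dCas9 construct named FB-dCas9-BirA, a catalytically inactive Cas9 with a Flag and a biotin acceptor tag, together with BirA, a biotin ligase. Their sgRNAs were sgGal4, a non-targeting control, sgHBG, aimed at the fetal globin promoters, sgHS2, aimed at the HS2 enhancer, or sgHS1-5, aimed at several elements of the β-globin cluster. The globin cluster is on chromosome 11, and no cancer-testis member was a target. Labels do not state whether replicates were separate cultures or how many clones a population held, so p values measure the spread between libraries. Each sgRNA group was its own cell population, and the effect of an sgRNA and other differences between populations cannot be told apart. The 3 comparisons with sgGal4 share its libraries, as the comparisons with WT share the 2 WT libraries, so their values are given side by side.

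Libraries held 5694448 to 11335831 counted reads, and 3 reads, the limit that a count of 0 allows, corresponded to 0.262 to 0.486 CPM. Intervals and limits of this kind cover counting error only. Replicates agreed closely in WT and sgHBG (χ² per degree of freedom 1.25 to 1.67). They stood farther apart between sgGal4 1 and the other sgGal4 libraries (90.1 and 93.9), between sgHS2 2 and the other sgHS2 libraries (17.3 and 16.6), and between sgHS1-5 2 and the other sgHS1-5 libraries (18.4 and 11.9). Of 12 K562 erythroid markers, none was at 0 in any library. In sgHS2 against sgGal4 6 rose and 0 fell, or 50% of the list beside 30.1% of all tested genes. The sgHS1-5 libraries also held 140 transcripts that were chosen for being nearly absent elsewhere. These summed to 78.1, 2117 and 512 CPM in sgHS1-5 1, 2 and 3 and to 3.32 to 6.28 CPM in the other groups. Of 7 lymphoid markers, 7 were called higher in sgHS1-5 than in sgGal4, where 40.4% of all tested genes were called. The sum of these markers was 324 to 386 CPM in sgHS1-5 and 374 to 386 in sgHBG. It was 133 to 240 in sgGal4, 120 to 162 in sgHS2 and 164 to 176 in WT. PTPRC made up most of it, with means of 312 CPM in sgHS1-5, 376.5 in sgHBG, 199 in sgGal4, 144 in sgHS2 and 166 in WT. In sgHBG 2 of 7 markers were called higher than in sgGal4 (24.7% of all genes called). MS4A1 was at 2.43, 38.9 and 9.60 CPM in the sgHS1-5 libraries and at 0 in all others. CD79A was at 1.30, 21.0 and 5.54 CPM in sgHS1-5 and at 0.567 or less elsewhere. The part of these transcripts and markers in the cancer-testis values of sgHS1-5 was not tested.

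The families differed in how much of them was transcribed. No read was counted in any library for 31 of the 72 genes, among them 17 of 21 GAGE genes, 4 of 13 MAGEA genes, 4 of 11 SSX genes, 3 of 5 XAGE genes and 2 of 3 CTAG genes. A further 16 had 3 to 54 reads over all libraries and stayed below the level for naming. The remaining 25 were 6 MAGEA, 6 MAGEB, 2 MAGEC, 5 PAGE, 4 SSX, 1 GAGE and 1 CTAG gene, and the same 25 passed the low-count filter of the tests. A gene that passed through 1 high group had to differ, so these 25 do not stand for all 72. CTAG2 and PAGE2B reached the level for naming in WT alone, MAGEB6 in sgHBG alone and PAGE2 in sgHS2 alone. Their calls with that group follow in part from the choice of genes. The nearest genes on either side of the threshold were MAGEB10 (1.06 ± 0.496 CPM, SD, n = 3, in sgHBG) and MAGEB18 (0.917 ± 0.167 CPM in sgHS2).

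A count of 0 has to be read with the sequence of these genes in mind. In GENCODE v29 transcripts, 21 of the 31 genes without reads could be matched, and a median of 92.9% of their 50-base windows also occurred in another gene, with 19 genes over 50%. Among the 25 named genes the median was 8.37% (0 to 56.5%). MAGEA3 (56.5%, mostly shared with MAGEA6), MAGEA6 (53.9%) and PAGE2B (52.3%, mostly shared with PAGE2) were over 50%, and CTAG2 shared 43.1% with CTAG1A. How the authors' counting treated reads that fit several genes is not given in the sources used here, so counts of these genes are uncertain, and the zeros may hold reads of such genes. Reads are also not told apart by strand, which touches MAGEA8 and MAGEB17 (each overlapped by an antisense gene), MAGEA12 (CSAG4), MAGEB1 (MAGEB4) and PAGE2B (ALAS2).

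Promoters of 19 of the 25 named genes were found in RefSeq (GRCh38.p14, 250 bases before to 50 after the start), and 6 had no entry (CTAG2, MAGEA1, MAGEB17, SSX3, SSX6 and SSX8). The sequences below show promoters of members whose levels moved alike or differently. MAGEA3 and MAGEA6, whose levels moved alike, were identical over 300 of 300 bases. Their transcripts also share sequence (54.9% of MAGEA3 windows occur in MAGEA6), so it is uncertain how far their counts are separate. PAGE1 and GAGE1, whose levels went different ways, had 71.7% identical bases, MAGEA4 and MAGEA8 69.0%, and PAGE2 and PAGE2B 86.7%. The lowest identity of any pair among the 19 was 45.7%, in MAGEA3 and MAGEA6 with PAGE2. The relation of promoter sequence to level was not tested. MAGEB16 is shown as the promoter of the gene that was nearly off in WT. Capitals mark the ETS core CCGGAA, the SP1 core GGGCGG and the E-box CACGTG on either strand (CCGCCC is the SP1 core read from the other strand).
MAGEA3 (chrX:152698544-152698843, plus strand), the same letters as MAGEA6: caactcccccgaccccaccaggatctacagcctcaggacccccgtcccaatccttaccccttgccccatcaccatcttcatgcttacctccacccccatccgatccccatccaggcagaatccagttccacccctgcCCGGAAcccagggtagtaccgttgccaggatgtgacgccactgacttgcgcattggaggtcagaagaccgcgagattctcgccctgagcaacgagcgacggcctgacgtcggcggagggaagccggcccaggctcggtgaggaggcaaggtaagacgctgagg
MAGEA8 (chrX:149880933-149881232, plus strand): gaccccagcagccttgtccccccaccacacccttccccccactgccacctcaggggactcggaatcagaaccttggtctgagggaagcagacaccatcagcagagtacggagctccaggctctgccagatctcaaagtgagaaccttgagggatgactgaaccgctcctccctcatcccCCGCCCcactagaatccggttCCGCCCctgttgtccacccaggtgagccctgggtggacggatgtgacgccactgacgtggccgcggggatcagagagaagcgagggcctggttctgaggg
MAGEB16 (chrX:35798092-35798391, plus strand): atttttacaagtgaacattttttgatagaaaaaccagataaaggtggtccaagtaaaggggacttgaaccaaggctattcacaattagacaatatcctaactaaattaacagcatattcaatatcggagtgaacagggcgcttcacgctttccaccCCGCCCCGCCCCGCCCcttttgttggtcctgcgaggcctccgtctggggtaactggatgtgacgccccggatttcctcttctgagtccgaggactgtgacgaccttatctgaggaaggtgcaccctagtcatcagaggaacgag
PAGE1 (chrX:49695935-49696234, minus strand): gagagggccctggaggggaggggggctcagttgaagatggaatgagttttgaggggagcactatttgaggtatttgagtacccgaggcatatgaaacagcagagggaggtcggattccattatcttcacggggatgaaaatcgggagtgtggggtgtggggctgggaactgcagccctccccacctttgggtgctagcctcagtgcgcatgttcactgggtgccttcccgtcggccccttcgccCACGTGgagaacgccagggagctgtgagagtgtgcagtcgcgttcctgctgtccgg
GAGE1 (chrX:49598763-49599062, plus strand): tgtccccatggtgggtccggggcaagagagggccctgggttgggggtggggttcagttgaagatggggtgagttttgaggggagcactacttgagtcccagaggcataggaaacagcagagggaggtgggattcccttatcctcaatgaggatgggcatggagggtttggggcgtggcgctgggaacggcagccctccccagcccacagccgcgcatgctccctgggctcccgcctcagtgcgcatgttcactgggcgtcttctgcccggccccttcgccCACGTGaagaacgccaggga

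Among the 19 promoters, the ETS core was found in 3 (15.8%, against 17.2% of 35116 RefSeq promoters of the same length). MAGEA3, MAGEA6 and MAGEB6 held it. The SP1 core was found in 8 (42.1% against 45%). An E-box was found in 5 (26.3% against 7.26%), all of them in GAGE1, PAGE1, PAGE2B, PAGE4 and PAGE5, which share ancestry and so are not independent. The median number of CpG pairs was 12 against 14 in all promoters, from 1 in MAGEB1 to 21 in MAGEB2. These matches describe letters in the window and no binding or methylation was measured.

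More of the 25 genes were called lower than higher in sgGal4 against WT, and more were called higher than lower in sgHS2 and sgHBG against sgGal4. Genes count as called here where the edgeR quasi-likelihood test, with Benjamini-Hochberg adjustment over 14406 genes, gave an adjusted p below 0.05. Of the 25 genes, 22 differed somewhere among the 5 groups, where 67.1% of all tested genes did. In sgGal4 against WT, 3 rose and 15 fell (42.4% of all genes called). In sgHS2 against sgGal4, 18 rose and 2 fell (30.1%). In sgHBG against sgGal4, 14 rose and 0 fell (24.7%), and in sgHS1-5 against sgGal4, 8 rose and 1 fell (40.4%, close to the share of the members called). In bulk RNA, fewer cells transcribing a gene and less RNA per cell cannot be told apart.

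The median log2 difference of the 25 genes was −1.30 in sgGal4 against WT, 1.38 in sgHS2 against sgGal4, 0.98 in sgHBG against sgGal4 and 0.44 in sgHS1-5 against sgGal4, while the median of all genes lay between −0.02 and 0.03 in these comparisons. With genes at 0 counts set to their bound, the medians were −0.93, 1.36, 0.82 and 0.44. Summed over all 72 genes, the level was 786 ± 1.77 CPM in WT (n = 2), 477 ± 114 in sgGal4, 723 ± 17.8 in sgHBG, 906 ± 55.9 in sgHS2 and 511 ± 109 in sgHS1-5 (n = 3). SSX1 led the sum in WT (21.4%), PAGE5 in sgGal4 (24.8%) and MAGEC2 in sgHBG and sgHS2 (16.5% and 17.1%). Counting by group means, sgGal4 was the lowest group for 17 of the 25 genes, and WT was the highest for 10 and sgHS2 for 8. This was not counted for other genes. Of 469 other tested X-linked genes, 49.3% were called lower and 8.74% higher in sgGal4 than in WT. In sgHS2 against sgGal4, 46.5% of them were called higher and 4.90% lower.

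**Figure D1:**
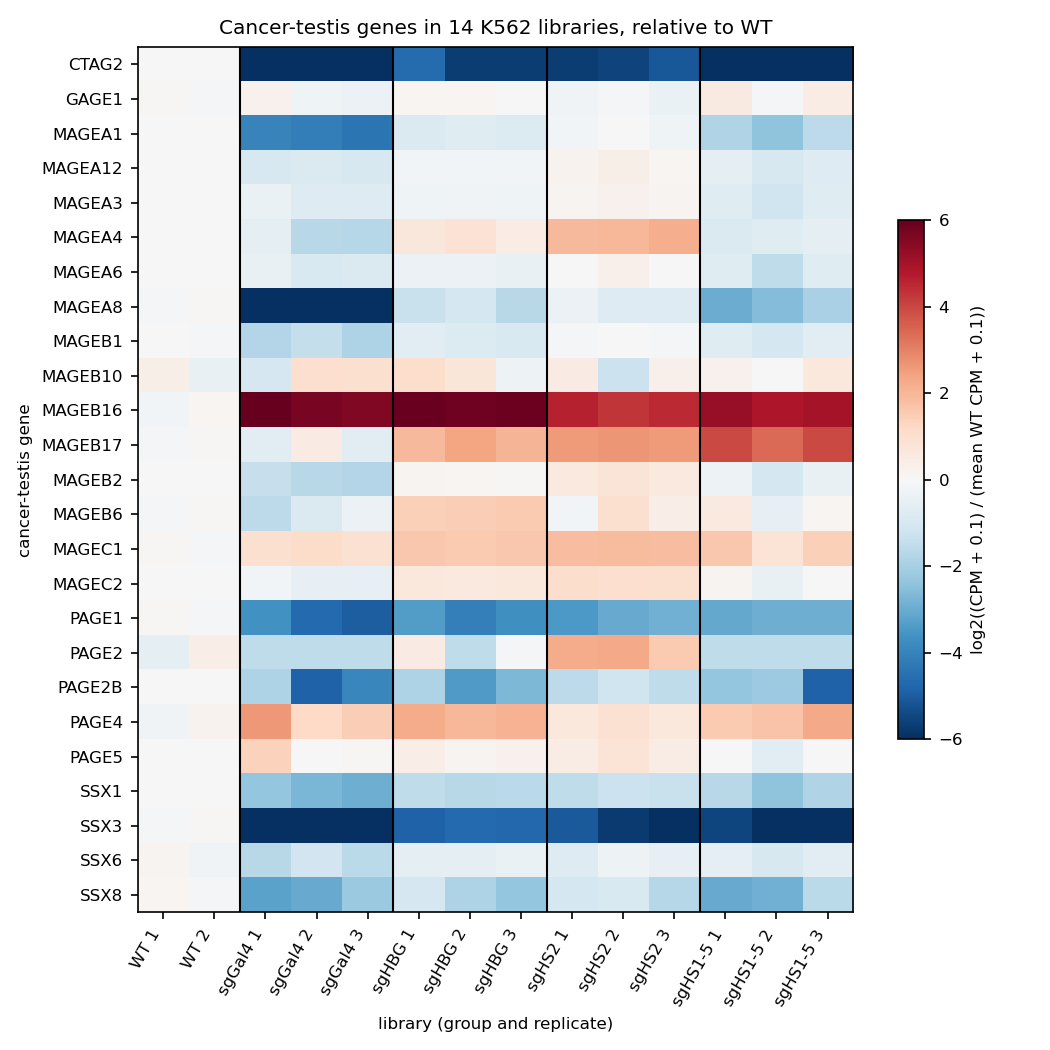
Level of each of the 25 named genes (vertical axis) in each of the 14 libraries (horizontal axis), as log2 of the ratio of CPM + 0.1 to the mean WT CPM + 0.1. Blue is lower and red higher than WT, and values past 6 in either direction have the end colour. SSX1, SSX3, CTAG2 and PAGE1 are blue in all dCas9 groups, MAGEA1 and MAGEA8 are deepest in sgGal4, and MAGEB16 is red in all dCas9 groups.

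All 25 members are X-linked, and other X-linked genes shifted in the same direction in these comparisons. Among 469 other tested X-linked genes the median log2 difference was −0.66 in sgGal4 against WT, where 8.74% were called higher and 49.3% lower, and the medians of the 22 autosomes lay between −0.49 (chromosome 15) and 0.27 (chromosome 12). It was 0.57 in sgHS2 against sgGal4 (46.5% higher and 4.90% lower, autosomes −0.15 to 0.42). It was 0.35 in sgHBG against sgGal4 (35.0% higher and 2.99% lower, autosomes −0.25 to 0.41) and 0.30 in sgHS1-5 against sgGal4 (30.7% and 10.4%, autosomes −0.11 to 0.35). In these last comparisons chromosome 15 had the highest median, above that of the X-linked genes. With the tested X-linked genes cut into 5 nearly equal stretches, from the short to the long arm, the median in sgGal4 against WT was −0.83, −0.39, −0.35, −0.70 and −0.94, and in sgHS2 against sgGal4 it was 0.64, 0.27, 0.26, 0.71 and 0.93. The number of X chromosomes per cell was not measured, and its part in these differences was not tested.

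Set against the range of the other X-linked genes, some members stood outside it. In sgGal4 against WT, 9 of 25 lay below the 5th percentile of the other X-linked genes (−2.50) and 1 above the 95th (2.28), and 15 lay within. With genes at 0 counts set to their bound, 8 lay below. In sgHS2 against sgGal4, 6 lay above the 95th percentile (2.47), or 5 with bounds, and 2 below the 5th (−1.16). In sgHBG against sgGal4, 6 lay above (2.51), or 4 with bounds, and in sgHS1-5 against sgGal4, 2 (3.39). A fit of X-linked genes alone, added after the data were seen, measures each gene relative to the X-linked genes as a whole. It called 5 members higher and 11 lower in sgGal4 against WT (47.4% of its 494 genes called), 10 and 3 in sgHS2 against sgGal4 (34.2%), 11 and 0 in sgHBG against sgGal4 (29.8%), and 7 and 3 in sgHS1-5 against sgGal4 (40.3%, about the share of the members).

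**Figure D2:**
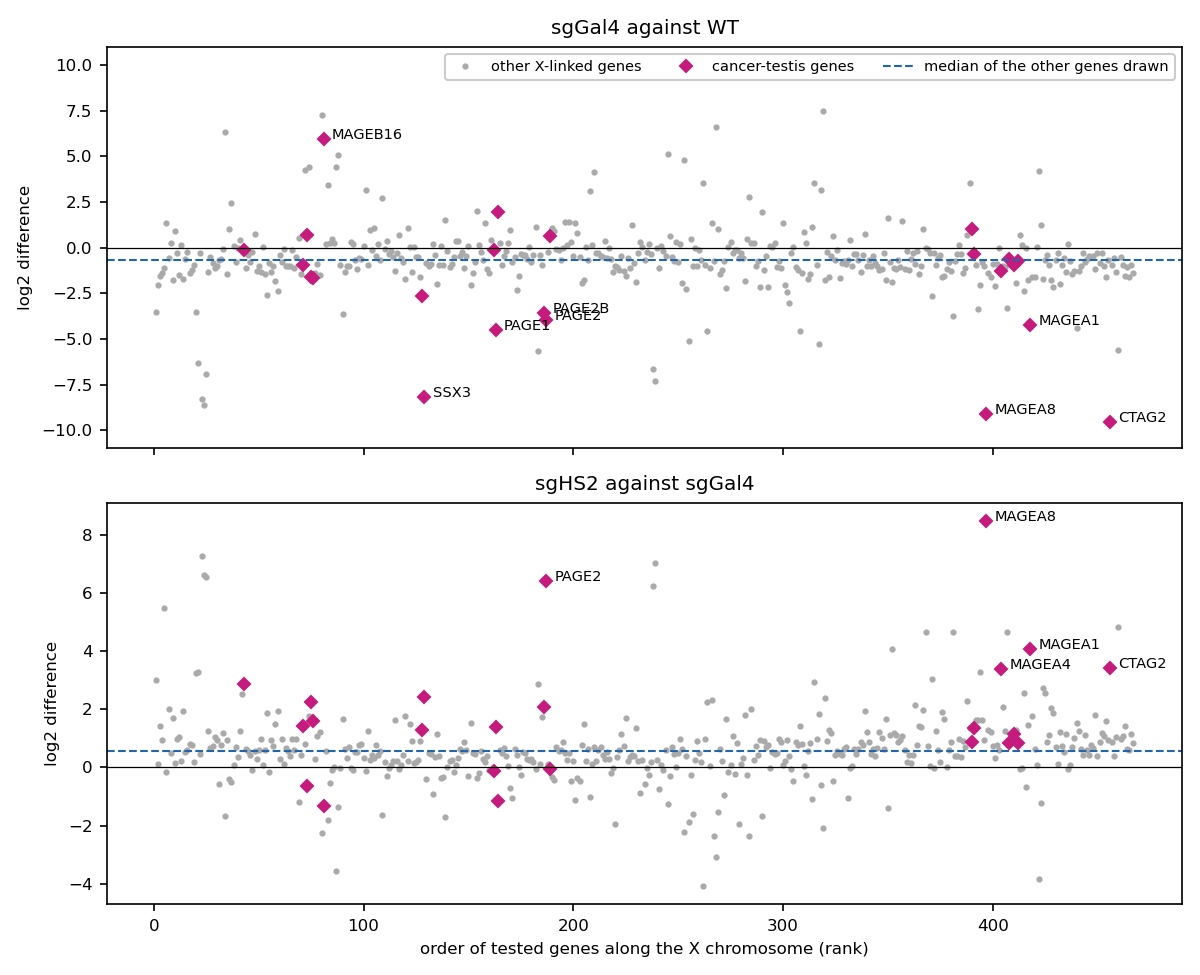
Fitted log2 difference (vertical axis) of tested X-linked genes in their order along the chromosome (horizontal axis, rank), for sgGal4 against WT (top) and sgHS2 against sgGal4 (bottom), with 23 cancer-testis genes as diamonds, 444 other genes as grey points and their median as a dashed line. Genes at 0 counts in a group (MAGEA8, CTAG2 and PAGE2) are drawn at fitted values that depend on the fit. In the top panel MAGEA8 and CTAG2 lie below every other gene drawn, and MAGEB16 is among the highest.

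**Figure D3:**
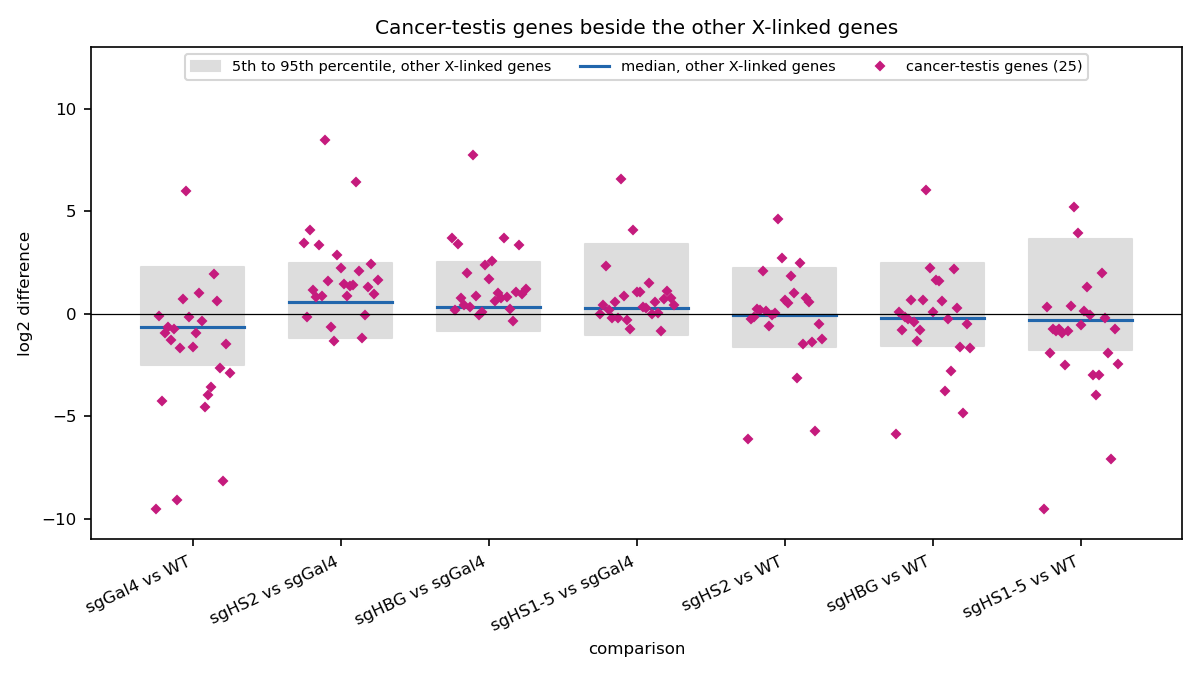
Fitted log2 differences of the 25 cancer-testis genes (diamonds, vertical axis) in 7 comparisons (horizontal axis), beside the 5th to 95th percentile (grey box) and the median (blue line) of 469 other X-linked genes. In sgGal4 against WT 9 diamonds lie below the box and 1 above it.

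Of 29 nearest tested neighbours that are not members, 4 were higher and 17 lower in sgGal4 against WT, and 20 were higher and 1 lower in sgHS2 against sgGal4. Of all tested genes, 42.4% and 30.1% were called in these comparisons. Of the other X-linked genes, 8.74% were higher and 49.3% lower in the former, and 46.5% higher and 4.90% lower in the latter. Beside MAGEA1, ZNF275 had log2 −1.63 in sgGal4 against WT and PNMA6A −1.79, where MAGEA1 itself had −4.23. Beside MAGEA8, TMEM185A had −1.02 and MTM1 −1.40. Beside MAGEB16, TMEM47 had 7.28 and PRRG1 0.21, the latter not called, where MAGEB16 had 5.96. These neighbours were chosen by position, from the gene order of RefSeq GRCh38.p14, and some lay far away. The gap to MAGEA1 was 104 kb (kilobases) for PNMA6A and 150 kb for ZNF275. To MAGEA8 it was 249 kb for TMEM185A and 677 kb for MTM1, and to MAGEB16 1141 kb for TMEM47 and 1546 kb for PRRG1. Shared regulation of neighbours and members was not tested.

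MAGEA genes encode the best known tumour antigens of the family, cofactors of RING ligases. All 6 tested MAGEA genes fell in sgGal4 against WT, although relative to the X-linked genes MAGEA3 was not lower (log2 0.05). All 6 rose in sgHS2 against sgGal4, 5 in sgHBG and 2 in sgHS1-5. MAGEA1 had 43.6 and 44.9 CPM in WT, 2.70, 2.42 and 2.02 in sgGal4, 23.9, 27.0 and 25.03 in sgHBG, 39.0, 44.2 and 36.8 in sgHS2 and 12.6, 8.33 and 14.6 in sgHS1-5. The sgGal4 libraries were the lowest 3 of the 14, WT and sgHS2 overlapped at the top, and sgHBG and sgHS1-5 lay between them without overlap. MAGEA1, the founding antigen of the family, was 18.6-fold lower in sgGal4 than in WT (log2 −4.23 ± 0.21, adjusted p = 1.88e-08). It was 16.8-fold higher in sgHS2 than in sgGal4 (log2 4.08 ± 0.20, adjusted p = 8.69e-08), 10.7-fold higher in sgHBG (log2 3.42 ± 0.20, adjusted p = 4.22e-07) and 4.99-fold higher in sgHS1-5 (log2 2.33 ± 0.21, adjusted p = 6.25e-06). Relative to the X-linked genes the values were −3.54, 3.48, 3.04 and 2.09, all called.

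MAGEA8 had 6.74 and 7.38 CPM in WT, 0 in every library in sgGal4, 2.70, 3.39 and 2.18 in sgHBG, 5.60, 4.08 and 4.05 in sgHS2 and 0.810, 1.09 and 1.76 in sgHS1-5. No sgGal4 library held a MAGEA8 read, and all other libraries did. The level was at least 66.6-fold lower in sgGal4 than in WT (adjusted p = 1.48e-06), counting 3 reads over the group. Against sgGal4 it was at least 43.5-fold higher in sgHS2, 26.0-fold in sgHBG and 11.7-fold in sgHS1-5 (adjusted p = 6.03e-06, 3.09e-05 and 0.000133). MAGEA4 had 4.23 and 4.10 CPM in WT, 2.84, 1.26 and 1.19 in sgGal4, 6.80, 7.58 and 5.76 in sgHBG, 16.2, 17.1 and 19.3 in sgHS2 and 2.27, 2.46 and 2.70 in sgHS1-5. The sgHS2 libraries were the highest, the sgHBG libraries were next, and sgGal4 overlapped sgHS1-5. MAGEA4, an antigen used as a target of engineered T cells, was 9.94-fold higher in sgHS2 than in sgGal4 (log2 3.37 ± 0.26, adjusted p = 2.01e-06) and 4.21-fold higher than in WT (log2 2.07 ± 0.27, adjusted p = 8.47e-05). Its fall in sgGal4 against WT (log2 −1.30 ± 0.30, adjusted p = 0.00357) was not called with only these groups in the fit (adjusted p = 0.0645) or relative to the X-linked genes (0.0904). In sgHS1-5 against sgGal4 it was not called (log2 0.56 ± 0.30, adjusted p = 0.155), but was without sgGal4 1 (log2 1.01, adjusted p = 0.00831).

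MAGEA3, MAGEA6 and MAGEA12 lie in 1 cluster and had differences of 1.14 or less on the log2 scale against sgGal4 and WT in the comparisons given here. MAGEA3 had 62.5 and 62.8 CPM in WT, 48.1, 36.4 and 36.9 in sgGal4, 52.3, 54.3 and 53.2 in sgHBG, 70.0, 75.8 and 69.8 in sgHS2 and 37.7, 27.6 and 38.4 in sgHS1-5. MAGEA6 had 58.7 and 59.6 CPM in WT, 43.1, 31.4 and 32.4 in sgGal4, 46.0, 46.8 and 42.9 in sgHBG, 59.6, 73.8 and 59.0 in sgHS2 and 35.5, 20.2 and 35.8 in sgHS1-5. MAGEA12 had 60.1 and 63.3 CPM in WT, 31.8, 34.1 and 31.7 in sgGal4, 55.3, 55.0 and 55.6 in sgHBG, 71.0, 78.2 and 66.5 in sgHS2 and 41.8, 31.7 and 35.7 in sgHS1-5. In each, the sgHS2 and WT libraries were high, and sgGal4 and sgHS1-5 were low and overlapped. MAGEA3 and MAGEA6, which act with the ligase TRIM28, were 1.55- and 1.66-fold lower in sgGal4 than in WT (log2 −0.63 ± 0.15, adjusted p = 0.0043 and log2 −0.74 ± 0.21, adjusted p = 0.0133). MAGEA12 was 1.90-fold lower (log2 −0.92 ± 0.12, adjusted p = 5.33e-05). Relative to the X-linked genes none of the 3 was called there (log2 0.05, −0.05 and −0.24). Nor was MAGEA6 called without WT 1 or WT 2 (adjusted p = 0.0633 and 0.0699). Against sgGal4, sgHS2 had log2 0.83, 0.85 and 1.14 for the 3 genes (adjusted p = 0.000614, 0.00507 and 9.88e-06). Relative to the X-linked genes only MAGEA12 was called (log2 0.54, adjusted p = 0.00305). The call of MAGEA3 in sgHBG against sgGal4 (log2 0.40 ± 0.14, adjusted p = 0.0467) was lost without sgGal4 2, sgGal4 3 or any 1 sgHBG library (adjusted p = 0.0957 to 0.124), with the replicate block (0.0637) and relative to the X-linked genes (0.949).

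The MAGEB family split into genes that followed MAGEA1 and genes that did not. MAGEB2 had 75.3 and 73.2 CPM in WT, 28.1, 23.4 and 22.1 in sgGal4, 82.7, 79.8 and 77.3 in sgHBG, 112, 128 and 111 in sgHS2 and 60.2, 35.8 and 54.6 in sgHS1-5. WT and sgHBG were near each other, sgHS2 was highest, sgGal4 lowest, and no sgGal4 library overlapped another group. MAGEB2, known to limit stress granules in spermatogonia, was 3.03-fold lower in sgGal4 than in WT (log2 −1.60 ± 0.18, adjusted p = 1.69e-05) and 4.76-fold higher in sgHS2 than in sgGal4 (log2 2.25 ± 0.17, adjusted p = 1.55e-06). It was 3.26-fold higher in sgHBG and 2.05-fold in sgHS1-5 (adjusted p = 2.34e-05 and 0.00047). MAGEB1 had 29.7 and 27.9 CPM in WT, 8.51, 10.7 and 7.89 in sgGal4, 17.7, 16.2 and 15.4 in sgHBG, 26.9, 28.1 and 26.6 in sgHS2 and 17.2, 13.8 and 17.7 in sgHS1-5. Again sgGal4 was lowest without overlap. MAGEB1 was 3.2-fold lower in sgGal4 than in WT (log2 −1.67 ± 0.15, adjusted p = 2.43e-06) and 3.02-fold higher in sgHS2 than in sgGal4 (log2 1.59 ± 0.14, adjusted p = 4.4e-06).

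MAGEB16 went the other way. MAGEB16 had 0.577 and 0.729 CPM in WT, 50.1, 39.5 and 35.4 in sgGal4, 45.9, 42.6 and 44.0 in sgHBG, 18.5, 14.7 and 16.8 in sgHS2 and 27.7, 21.4 and 24.2 in sgHS1-5. It was nearly off in WT and on in every dCas9 library, highest in sgGal4 and sgHBG, which overlapped. MAGEB16 was 63.8-fold higher in sgGal4 than in WT (log2 5.96 ± 0.25, adjusted p = 8.4e-09), 67.6-fold in sgHBG, 37.4-fold in sgHS1-5 and 25.5-fold in sgHS2 (adjusted p = 8.72e-09, 1.91e-08 and 8.4e-08). Against sgGal4 it was 2.50-fold lower in sgHS2 (log2 −1.32 ± 0.14, adjusted p = 3.18e-05). It was 1.70-fold lower in sgHS1-5 (log2 −0.77 ± 0.14, adjusted p = 0.00135), a call lost without sgHS1-5 2 and 3 (adjusted p = 0.0795).

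MAGEB17 was low in both WT and sgGal4 and higher in each targeting group. MAGEB17 had 0.866 and 1.002 CPM in WT, 0.567, 1.36 and 0.550 in sgGal4, 3.90, 5.17 and 4.10 in sgHBG, 6.03, 6.44 and 5.99 in sgHS2 and 16.2, 10.8 and 16.2 in sgHS1-5. The sgHS1-5 libraries were the highest and did not overlap any other group. MAGEB17 was 17.5-fold higher in sgHS1-5 than in sgGal4 (log2 4.07 ± 0.30, adjusted p = 1.68e-06), 7.46-fold in sgHS2 (log2 2.85 ± 0.31, adjusted p = 2.68e-05) and 5.33-fold in sgHBG (log2 2.37 ± 0.31, adjusted p = 0.000219). GRPR, its nearest tested neighbour and a peptide receptor gene, had log2 3.72 in sgHS1-5, 2.53 in sgHS2 and 1.92 in sgHBG against sgGal4, while CTPS2 on the other side had 0.09, 0.63 and 0.34. MAGEB6 and MAGEB10 were near the threshold for naming, which MAGEB6 reached in sgHBG alone, so its calls with sgHBG follow in part from that choice. MAGEB6 had 0.577 and 0.638 CPM in WT, 0.142, 0.290 and 0.459 in sgGal4, 1.80, 1.87 and 2.01 in sgHBG, 0.525, 1.29 and 0.829 in sgHS2 and 0.972, 0.410 and 0.676 in sgHS1-5. MAGEB6 was 6.38-fold higher in sgHBG than in sgGal4 (log2 2.55 ± 0.45, adjusted p = 0.00157), and its call in sgHS2 (log2 1.43 ± 0.48, adjusted p = 0.0387) was lost in 10 of 17 alternatives, among them without sgGal4 1, sgGal4 2, sgHS2 2 or sgHS2 3 (adjusted p = 0.0906, 0.0925, 0.16 and 0.0777). MAGEB10 had 0.214 to 1.5 CPM over all libraries and was called in no comparison.

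Both tested MAGEC genes were highest in sgHS2. MAGEC1 had 31.6 and 27.7 CPM in WT, 57.9, 63.2 and 56.7 in sgGal4, 90.8, 88.9 and 89.8 in sgHBG, 106, 111 and 107 in sgHS2 and 90.7, 52.4 and 78.8 in sgHS1-5. MAGEC2 had 76.0 and 78.8 CPM in WT, 69.8, 55.4 and 55.6 in sgGal4, 122, 117 and 119 in sgHBG, 158, 156 and 149 in sgHS2 and 85.4, 57.4 and 79.2 in sgHS1-5. For MAGEC1, WT was lowest without overlap, while for MAGEC2 sgGal4 and WT were both low and sgHS1-5 overlapped both. MAGEC1, an antigen best known in multiple myeloma, was 2.00-fold higher in sgGal4 than in WT (log2 1.0 ± 0.18, adjusted p = 0.000708), 3.64-fold in sgHS2 (log2 1.87 ± 0.18, adjusted p = 8.94e-06), 3.03-fold in sgHBG (log2 1.60 ± 0.18, adjusted p = 2.95e-05) and 2.50-fold in sgHS1-5 (log2 1.32 ± 0.18, adjusted p = 0.000102). MAGEC2, also a cofactor of TRIM28, was 2.57-fold higher in sgHS2 than in sgGal4 (log2 1.36 ± 0.14, adjusted p = 1.68e-05) and 1.98-fold higher in sgHBG (log2 0.99 ± 0.14, adjusted p = 0.00032). In sgHS1-5 against sgGal4 it was not called (log2 0.30 ± 0.14, adjusted p = 0.102), but was without sgGal4 1 or sgHS1-5 2 (adjusted p = 0.0174 and 0.00846). In sgGal4 against WT it was not called (log2 −0.36 ± 0.15, adjusted p = 0.0708), but was without sgGal4 1 (0.00919). The calls of MAGEC1 against sgGal4 in sgHS2 (log2 0.86 ± 0.15, adjusted p = 0.00114) and in sgHBG (log2 0.60 ± 0.15, adjusted p = 0.014) were lost relative to the X-linked genes (0.217 and 0.349).

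**Figure D4:**
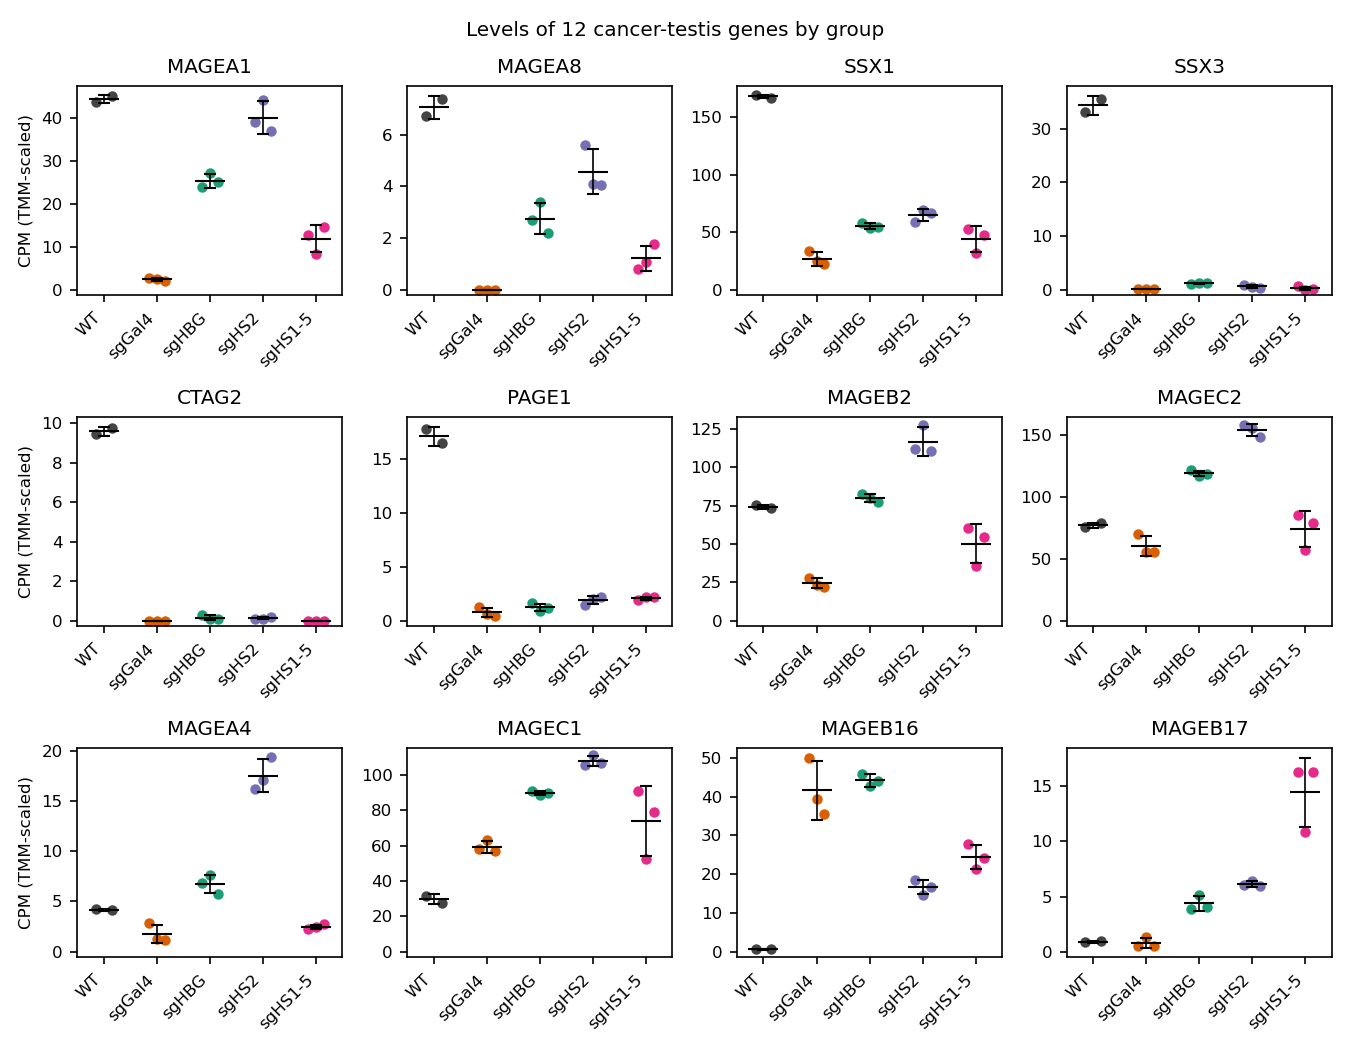
CPM (vertical axis, linear, a separate scale for each gene) of 12 cancer-testis genes in 5 groups (horizontal axis), with 1 point per library and bars at the mean ± SD (n = 2 for WT and 3 for the others). SSX3, CTAG2 and PAGE1 are high in WT alone, MAGEA1 and MAGEA8 are lowest in sgGal4, and MAGEB16 is near 0 in WT alone.

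SSX genes, known from the SS18-SSX fusions of synovial sarcoma, were summed to their highest level in WT. All 4 tested SSX genes fell in sgGal4 against WT, also relative to the X-linked genes. The summed SSX level was 213 ± 1.53 CPM in WT (n = 2) and 29.9 ± 5.87 in sgGal4, 61.5 ± 3.03 in sgHBG, 71.0 ± 5.34 in sgHS2 and 48.0 ± 11.95 in sgHS1-5 (n = 3). SSX1 had 169 and 167 CPM in WT, 33.2, 24.8 and 22.2 in sgGal4, 58.1, 53.6 and 54.5 in sgHBG, 59.2, 69.0 and 67.0 in sgHS2 and 53.0, 31.7 and 47.6 in sgHS1-5. The WT libraries were the highest 2, sgHS2 the next, and the lowest sgHS1-5 library fell within the sgGal4 range. SSX1 was 6.29-fold lower in sgGal4 than in WT (log2 −2.66 ± 0.20, adjusted p = 5.47e-07) and 2.58-fold lower in sgHS2 than in WT (log2 −1.37 ± 0.19, adjusted p = 0.000138). Against sgGal4 it was 2.43-fold higher in sgHS2 (log2 1.29 ± 0.18, adjusted p = 0.000198), 2.07-fold in sgHBG (log2 1.06 ± 0.18, adjusted p = 0.00125) and 1.65-fold in sgHS1-5 (log2 0.73 ± 0.18, adjusted p = 0.00725), the last not called with only these groups in the fit (0.0763).

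SSX3 had 33.1 and 35.6 CPM in WT, 0.142, 0.0968 and 0.0917 in sgGal4, 1.10, 1.25 and 1.22 in sgHBG, 0.962, 0.536 and 0.368 in sgHS2 and 0.648, 0 and 0.135 in sgHS1-5. The WT libraries held 735 reads in all, and the dCas9 libraries held 14 or fewer each. SSX3 had 3 reads over the sgGal4 libraries, a ratio of 324 (95% counting interval 111 to 1576, adjusted p = 9.72e-08). With 39 reads in sgHBG, the ratio to sgGal4 was 11.3 (3.58 to 56.9, adjusted p = 0.00257). Its call in sgHS2 against sgGal4 (adjusted p = 0.0204) was lost without sgGal4 2, sgGal4 3 or sgHS2 1 (0.056, 0.0586 and 0.0965). SSX6 and SSX8, named SSX6P and SSX8P as pseudogenes in newer annotation, were low. SSX6 had 5.29 and 4.01 CPM in WT, 1.42, 2.03 and 1.47 in sgGal4, 3.2, 3.12 and 3.49 in sgHBG, 2.71, 3.75 and 3.32 in sgHS2 and 3.08, 2.32 and 2.97 in sgHS1-5. SSX8 had 5.10 and 4.28 CPM in WT, 0.426, 0.484 and 0.917 in sgGal4, 2.30, 1.25 and 0.872 in sgHBG, 2.19, 2.47 and 1.38 in sgHS2 and 0.486, 0.546 and 1.49 in sgHS1-5. Both WT libraries were above all others in both genes. SSX6 was not called against WT in sgHS2 or sgHBG (adjusted p = 0.12 and 0.126). In sgGal4 against WT they were 2.84- and 7.70-fold lower (log2 −1.49 ± 0.25, adjusted p = 0.000486 and log2 −2.88 ± 0.50, adjusted p = 0.000524). SSX6 rose in sgHS2 and sgHBG against sgGal4 (adjusted p = 0.00835 and 0.0103), neither called relative to the X-linked genes (0.262 and 0.0748). Its call in sgHS1-5 (log2 0.75 ± 0.25, adjusted p = 0.0295) was lost in 14 of 20 alternatives, among them without sgGal4 1, sgGal4 3, sgHS1-5 1 or sgHS1-5 3 (0.0651 to 0.0894). The call of SSX8 in sgHS2 against sgGal4 (log2 1.66 ± 0.49, adjusted p = 0.0216) was lost without sgGal4 2, sgHS2 1 or sgHS2 2 (0.069, 0.0638 and 0.0606).

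CTAG2, the LAGE-1 antigen and close relative of NY-ESO-1, was transcribed at a measurable level in WT alone. CTAG2 had 9.43 and 9.75 CPM in WT, 0 in every library in sgGal4, 0.30, 0.0892 and 0.0872 in sgHBG, 0.0874, 0.107 and 0.184 in sgHS2 and 0 in every library in sgHS1-5. Neither sgGal4 nor sgHS1-5 held a read, and sgHBG and sgHS2 held 5 and 4. CTAG2 reached the level for naming in WT alone, so its calls against WT follow in part from that choice. CTAG2 was at least 90.4-fold lower in sgGal4 and at least 66.8-fold lower in sgHS1-5 than in WT (adjusted p = 7.22e-06 and 1.11e-05). It was 60.4-fold lower in sgHBG (log2 −5.85 ± 0.45, adjusted p = 1.88e-05) and 75.9-fold lower in sgHS2 (log2 −6.11 ± 0.46, adjusted p = 1.82e-05). Its differences from sgGal4 were not called (adjusted p = 0.0505 in sgHBG and 0.0703 in sgHS2). In sgHBG it was called under 5 alternatives, with limma voom (0.0487), with RPKM in 3 forms (0.00888 to 0.0275) and without sgHS1-5 2 and 3 (0.048).

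GAGE and PAGE genes arose from a common ancestor, and they did not move as a group. GAGE1 had 14.4 and 12.8 CPM in WT, 16.3, 11.2 and 10.6 in sgGal4, 14.7, 14.8 and 13.5 in sgHBG, 11.7, 12.6 and 10.1 in sgHS2 and 19.6, 12.7 and 18.7 in sgHS1-5. The sgGal4 range overlapped every other group, and sgHS2 lay below WT, sgHBG and sgHS1-5. GAGE1, the first described GAGE gene, was called in no comparison with the full gene set. Relative to the X-linked genes it was higher in sgGal4 than in WT (log2 0.57, adjusted p = 0.0431) and lower in sgHS2 than in sgGal4 (log2 −0.73, adjusted p = 0.00912). In sgHS1-5 against sgGal4 it was called without sgGal4 1 or sgHS1-5 2 (adjusted p = 0.0093 and 0.0224, against 0.0932). PAGE1 had 17.7 and 16.4 CPM in WT, 1.28, 0.581 and 0.459 in sgGal4, 1.60, 0.892 and 1.22 in sgHBG, 1.49, 2.04 and 2.21 in sgHS2 and 1.94, 2.19 and 2.16 in sgHS1-5. The 2 WT libraries stood far above all 12 others. PAGE1, whose promoter resembles that of GAGE1, was 22.1-fold lower in sgGal4 than in WT (log2 −4.53 ± 0.33, adjusted p = 4.87e-07), 13.8-fold in sgHBG, 8.92-fold in sgHS2 and 8.13-fold in sgHS1-5 (adjusted p = 1.46e-06, 5.08e-06 and 6.62e-06). It was 2.48-fold higher in sgHS2 and 2.72-fold higher in sgHS1-5 than in sgGal4 (adjusted p = 0.00973 and 0.00535). The first of these was lost with only these groups in the fit (0.0533) and relative to the X-linked genes (0.0894), the second without sgHS1-5 2 and 3 (0.103). In sgHBG it was called only without sgGal4 1 (log2 1.23 against 0.75), alone or with sgHS2 2 left out too.

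PAGE5 was the most abundant member per length, at a mean of 171 RPKM (the authors' scale, read counts set relative to gene length and depth) in WT, ahead of SSX1 at 121 and MAGEB2 at 49.2. PAGE5 had 76.0 and 76.4 CPM in WT, 201, 74.5 and 79.7 in sgGal4, 99.7, 85.4 and 91.0 in sgHBG, 105, 133 and 103 in sgHS2 and 76.0, 47.8 and 74.6 in sgHS1-5. Library sgGal4 1 was the highest of the 14 and the other sgGal4 libraries were among the lower ones. PAGE5 was called in no comparison with the full gene set, and its difference in sgHS2 against sgGal4 turned from −0.05 to 0.56 without sgGal4 1 (adjusted p = 0.0168). Relative to the X-linked genes it was higher in sgGal4 than in WT (log2 1.31, adjusted p = 0.00849) and lower in sgHS1-5 than in sgGal4 (log2 −1.07, adjusted p = 0.0142). In sgHS1-5 against sgGal4 it was not called in the main fit (log2 −0.83 ± 0.32, adjusted p = 0.0506), but was without sgGal4 2 or sgGal4 3 (0.0164 and 0.0215). It was also called there with the DESeq2 Wald test (0.0277) and without the low-count filter (0.0377). PAGE4 had 0.866 and 1.18 CPM in WT, 6.81, 2.52 and 3.03 in sgGal4, 5.20, 4.37 and 4.71 in sgHBG, 1.66, 2.04 and 1.66 in sgHS2 and 3.24, 3.55 and 5.41 in sgHS1-5. Here too sgGal4 1 was the highest. PAGE4, a disordered protein studied in prostate, was 4.02-fold higher in sgGal4 than in WT (log2 1.96 ± 0.44, adjusted p = 0.00314) and 4.65-fold higher in sgHBG (log2 2.20 ± 0.43, adjusted p = 0.00174). The first was lost with only these groups in the fit (0.0538). Its fall in sgHS2 against sgGal4 (log2 −1.17 ± 0.36, adjusted p = 0.0256) was lost without sgGal4 1, sgHS2 1 or sgHS2 3 (0.0901, 0.0831 and 0.0829).

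PAGE2 and PAGE2B, a closely related pair, were at low levels with different leading groups. PAGE2 had 0.0962 and 0.273 CPM in WT, 0 in every library in sgGal4, 0.30, 0 and 0.174 in sgHBG, 1.22, 1.29 and 0.737 in sgHS2 and 0 in every library in sgHS1-5. PAGE2B had 2.79 and 2.82 CPM in WT, 0.709, 0 and 0.0917 in sgGal4, 0.70, 0.178 and 0.349 in sgHBG, 0.874, 1.18 and 0.921 in sgHS2 and 0.486, 0.546 and 0 in sgHS1-5. PAGE2 was highest in sgHS2, where all 3 libraries lay above all others, and PAGE2B was highest in WT. Each reached the level for naming in its highest group alone, so its calls with that group follow in part from that choice. PAGE2 was at least 10.1-fold higher in sgHS2 than in sgGal4 (adjusted p = 0.00406), with 34 reads against 0. Its call in sgHS2 against WT (log2 2.45) was lost without sgHS2 3 (adjusted p = 0.0606), with the replicate block (0.0666) and with the DESeq2 Wald test (0.131). PAGE2B was 10.5-fold lower in sgGal4 than in WT (log2 −3.58 ± 0.83, adjusted p = 0.00401), and in sgHS2 against sgGal4 it was called without sgGal4 1 (log2 4.06 against 2.09, adjusted p = 0.0067). Since PAGE2B overlaps ALAS2, a heme synthesis gene, and shares sequence with PAGE2, its reads are uncertain. XAGE genes were at the edge of detection. The summed XAGE level was 0.690 ± 0.188 CPM in sgGal4 and 0.0334 to 0.136 CPM on average in the other groups, and no XAGE gene was tested.

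Compared with WT rather than with sgGal4, the targeting groups split the members. In sgHS2 against WT 7 rose and 5 fell (33.1% of all genes called), in sgHBG against WT 6 rose and 9 fell (33.6%), and in sgHS1-5 against WT 4 rose and 14 fell (42.9%). Relative to the X-linked genes the counts were 7 and 4, 7 and 9, and 5 and 9, where 29.1%, 34.6% and 41.1% of the 494 genes were called. The medians were 0.12, −0.23 and −0.76, beside −0.04, −0.23 and −0.33 for the other X-linked genes. MAGEA1 in sgHS2 had no called difference from WT (log2 −0.15 ± 0.17, adjusted p = 0.561), while sgHBG and sgHS1-5 were 1.75- and 3.73-fold lower (log2 −0.80 ± 0.17, adjusted p = 0.00303 and log2 −1.90 ± 0.18, adjusted p = 4.73e-06). SSX1, SSX3, SSX8, CTAG2 and PAGE1 were called lower than WT in all 4 dCas9 groups, and MAGEB16 and MAGEC1 higher in all 4. SSX8 lost its call in sgHS2 against WT (log2 −1.22 ± 0.44, adjusted p = 0.0483) without any 1 WT or sgHS2 library (0.0622 to 0.225), and in sgHBG without WT 1 or sgHBG 3 (0.0852 and 0.0515). MAGEB2 in sgHS2 (log2 0.65 ± 0.18, adjusted p = 0.0133) and MAGEC2 in sgHBG (log2 0.62 ± 0.15, adjusted p = 0.00721) were higher than WT, calls lost without WT 1 or WT 2 (0.0791 and 0.0975 for MAGEB2, 0.0679 and 0.0511 for MAGEC2). MAGEC2 was also higher in sgHS2 than in WT (log2 1.0 ± 0.16, adjusted p = 0.000338), and MAGEB17 was higher than WT in sgHS2, sgHBG and sgHS1-5 (log2 2.70, 2.22 and 3.93).

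The dCas9 groups followed 1 order in many members. The fitted levels ran sgGal4, sgHS1-5, sgHBG, sgHS2 from low to high in 11 of 25 members, in 18.8% of the 469 other X-linked genes and in 5.87% of all tested genes. The 11 were MAGEA1, MAGEA4, MAGEA8, MAGEA12, MAGEB1, MAGEB2, MAGEC1, MAGEC2, PAGE2B, SSX1 and SSX8. For MAGEA1, MAGEA8 and MAGEB2 all 4 groups were separate in this order, and in the rest neighbouring groups overlapped. The sgHS1-5 libraries overlapped sgGal4 for MAGEA4, MAGEA12, MAGEC2 and SSX1, and sgHBG for MAGEB1. They overlapped both for MAGEC1, PAGE2B and SSX8, and for SSX8 sgHBG and sgHS2 overlapped too. How often the groups were separate in other genes was not counted. This order was looked for after the levels were seen, and neither it nor the shares were tested.

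Other cancer-testis genes were compared through a list of 63, of which 55 were in the count table and 16 were tested. Of these, 3 rose and 1 fell in sgHS2 against sgGal4 (median log2 0.16), 1 rose and 1 fell in sgHBG (0.12), 1 rose and 4 fell in sgHS1-5 (−0.29), and 1 rose and 4 fell in sgGal4 against WT (−0.22). These are 25%, 12.5%, 31.2% and 31.2% of the list, beside 30.1%, 24.7%, 40.4% and 42.4% of all tested genes. SAGE1 was at 66.3 ± 1.90 CPM in WT and 29.1 ± 1.28 in sgGal4 (log2 −1.19 ± 0.18, adjusted p = 0.000164). PASD1 did not differ by a called amount there (log2 −0.04 ± 0.17, adjusted p = 0.887) and fell in sgHS1-5 against sgGal4, from 22.7 ± 3.77 to 4.37 ± 0.990 CPM (log2 −2.39 ± 0.18, adjusted p = 2.21e-06). CT83 had no read in WT and 2.35 ± 0.211 CPM in sgGal4 (adjusted p = 6.27e-06). FMR1NB was at 6.36 ± 0.416 CPM in WT and 0.665 ± 0.682 in sgGal4 (log2 −3.38 ± 0.62, adjusted p = 0.000856).

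Type II MAGE genes, which are transcribed in many tissues, changed in both directions. Of 7 tested, 3 rose and 3 fell in sgGal4 against WT, and 2 rose and 0 fell in sgHS2 against sgGal4, where 42.4% and 30.1% of all genes were called. MAGED2, a gene also mutated in a transient Bartter syndrome, was at 89.3 ± 0.603 CPM in WT and 193 ± 13.5 in sgGal4 (log2 1.11 ± 0.13, adjusted p = 2.74e-05). MAGEH1 was at 21.0 ± 0.878 and 45.2 ± 14.8 CPM (log2 1.10 ± 0.24, adjusted p = 0.00266), and MAGEF1 at 50.04 ± 1.25 and 77.3 ± 21.0 CPM (log2 0.62 ± 0.17, adjusted p = 0.0104). TRO fell from 2.49 ± 0.295 to 0.0473 ± 0.0819 CPM (adjusted p = 0.0011).

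Proteins that MAGE proteins work with were followed through their genes. Of 8 tested ligase partners and targets, 0 rose and 1 fell in sgGal4 against WT, and 2 rose and 0 fell in sgHS2 against sgGal4, or 12.5% and 25% of the list beside 42.4% and 30.1% of all genes. TRIM28, the ligase partner of MAGEA3, MAGEA6 and MAGEC2, was not called in sgGal4 against WT (log2 −0.09 ± 0.14, adjusted p = 0.641) or in sgHS2 against sgGal4 (log2 −0.08 ± 0.13, adjusted p = 0.69), and neither was PRKAA1, an AMPK subunit degraded through it (log2 −0.32 ± 0.18, adjusted p = 0.18 and log2 0.23 ± 0.16, adjusted p = 0.309). LNX1, a ligase partner of type I MAGE proteins, was the gene that fell (log2 −0.76 ± 0.20, adjusted p = 0.00925), and in sgHS2 against sgGal4 it rose (log2 1.07 ± 0.18, adjusted p = 0.000846).

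Among 31 genes of DNA methylation and repression, 6 rose and 7 fell in sgGal4 against WT (median log2 0.10), and 1 rose and 8 fell in sgHS2 against sgGal4 (−0.09). The shares called, 41.9% and 29%, were near those of all genes (42.4% and 30.1%), so the counts are no result about the list. The genes described next are among the 7 that fell in sgGal4 and do not stand for the 6 that rose. EZH2, the Polycomb methyltransferase, was at 186 ± 5.67 CPM in WT and 65.4 ± 5.52 in sgGal4 (log2 −1.51 ± 0.10, adjusted p = 2.64e-07), and in sgHS2 it was not called against sgGal4 (log2 −0.01 ± 0.09, adjusted p = 0.939). HELLS, a chromatin remodeller needed for DNA methylation, fell in sgGal4 against WT (log2 −1.49 ± 0.23, adjusted p = 0.000216) and again in sgHS2 against sgGal4 (log2 −0.78 ± 0.23, adjusted p = 0.0206). UHRF1, which brings DNMT1 to replicated DNA, fell in sgGal4 (log2 −1.09 ± 0.25, adjusted p = 0.00343) and rose in sgHS1-5 against sgGal4 (log2 1.75 ± 0.23, adjusted p = 0.000109). DNA methylation was not measured.

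Germ cell markers outside these families were mostly at 0. Of 14 germ cell markers, 8 to 12 were at 0 in each library, and their sum was 7.98 to 19.4 CPM, most of it SYCP3, a protein of meiotic chromosomes, whose level was called different nowhere among the groups (adjusted p = 0.231). MAEL, a germ cell gene of transposon silencing, was at 2.80 ± 0.421 CPM in WT and 0.110 ± 0.0276 in sgGal4 (adjusted p = 6.31e-05). SSX2IP, a centrosomal protein on chromosome 1, was at 89.1 ± 0.464 CPM in WT, 54.3 ± 8.89 in sgGal4, 80.7 ± 2.69 in sgHBG, 91.9 ± 10.3 in sgHS2 and 85.2 ± 7.35 in sgHS1-5. It was lower in sgGal4 than in WT (log2 −0.71 ± 0.14, adjusted p = 0.00133) and higher than sgGal4 in all 3 targeting groups (log2 0.76, 0.57 and 0.65, all called).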

How the data were processed

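RNA-seq of 14 libraries of the K562 cell line was analysed from a table of read counts per gene and a table of RPKM values, both deposited by the authors. The authors made the counts and the RPKM values with reads aligned to hg19, and per the submitters' processing notes they used TopHat, Cufflinks and DESeq. The counting tool, its treatment of reads that fit several genes, and versions are not given in the sources used here. Per the labels' protocols, libraries were made with a TruSeq RNA v2 kit, which does not mark strand.

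Counts of all 14 libraries were fitted together with edgeR 4.0.16 (R 4.3.3) by its quasi-likelihood test, with TMM scaling and the filterByExpr rule (minimum count 10, minimum total 15). This left 14406 of 24729 genes and 9 residual degrees of freedom. P values were adjusted by Benjamini-Hochberg over all tested genes, a gene was called under 0.05, and errors of log2 differences are standard errors. Levels are TMM-scaled CPM with the SD over libraries. A fold against a group without reads was computed against 3 reads over the group, and ratios with 1 to 3 reads have exact 95% binomial intervals. The procedure was tested on simulated data.

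Named genes had a mean of at least 1 CPM in some group. Members and gene lists were chosen with earlier results of these data known. Groups came from the sample titles. Alternatives were other scaling (RLE), filters, DESeq2 1.42.0, limma 3.58.1 (voom, and log2(RPKM + 1) or log2(RPKM + 0.1), where a fold of a low gene is understated), only the groups compared, a replicate block, near-identical members summed, and leaving out libraries. A fit of X-linked genes alone was added after seeing the data. Replicate numbers did not pair the samples: of 26 pairs of libraries with the same number, 1 had a correlation of deviations over 0.1. Gene order came from RefSeq GRCh38.p14. Chromosomes came from RefSeq or, for symbols without a match there, from GENCODE v29, matched by symbol for 14174 of the tested genes. No coordinates were converted from hg19.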

Additional observations from a re-analysis of the deposited data

Results flagged for a closer look

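MAGEA5, a member without a read in the count table, had RPKM values above 0 in the authors' second table, which the comparisons above do not use for it. Its level was 1.12 ± 0.155 RPKM in sgHS1-5 (SD, n = 3), while the highest WT or sgGal4 library was at 0.198 RPKM. It is given here because this signal appears outside the count data and above the control libraries. Among the 31 members at 0 counts, 22 were listed at 0 RPKM throughout and 9 were above 0 in at least 1 library. The difference between the tables was not tested.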

How the results depend on the processing

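Of 106 called differences of the 25 genes, 71 kept their direction and their call under every alternative run and 35 lost the call under at least 1. The number of genes called moved by more than 1.5 times in few settings. In the fit of X-linked genes alone it was 13 in sgHS2 against sgGal4. With log2(RPKM + 1) and no filter it was 22 in sgHBG against sgGal4, 15 in sgHS1-5 against sgGal4 and 21 in sgHS2 against WT. The cause was not tested. Leaving out 1 library at a time gave 16 to 20 called genes in sgHS2 against sgGal4, 13 to 16 in sgHBG against sgGal4, 8 to 12 in sgHS1-5 against sgGal4, 17 to 19 in sgGal4 against WT, 11 to 15 in sgHBG against WT and 16 to 18 in sgHS1-5 against WT. With the replicate block the counts were 19, 13, 8, 18, 15 and 17 in the same order. In sgHS2 against WT, where 12 were called, leaving out any 1 sgHS2 library left 10. PAGE5 in sgHS2 against sgGal4 ranged from −0.30 to 0.56 with 1 library left out, the latter without sgGal4 1, and was 0.41 without sgGal4 1 and sgHS2 2. In sgGal4 against WT, GAGE1 turned to 0.57 and MAGEA3 to 0.049 with X-linked genes alone. Levels near 3 reads per library limit PAGE2, PAGE2B, MAGEB6, MAGEB10 and SSX3 outside WT.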
